A study of Mus musculus with 10 samples.

Results

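Short, single-block m6A peaks that were listed at the same place in wild-type (WT) and in Mettl14 knockout mouse samples are described here. A peak belonged to the set when it was an entry of the WT consensus list with 1 exonic block below 600 bases, and when an entry of the knockout (KO) list on the same strand shared exonic bases equal to at least 50% of the exonic length of each. There were 423 such peaks in 395 genes, out of 15091 WT entries and out of 10944 WT entries with 1 block below 600 bases (3.87%). The genes were 6.25% of the 6316 that had such an entry. The members were thus chosen by width, block number and overlap between the genotypes, and these measures are given as description, with no test. The 423 names stand for 409 separate loci, because some entries cover the same bases under several gene names.

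The study profiled polyadenylated RNA from mouse cortex and hippocampus at postnatal day 5 by m6A-seq, an assay in which an antibody against N6-methyladenosine (m6A) enriches RNA fragments that are then compared with unselected input RNA. The groups were WT animals, with 3 IP and 3 Input libraries, and Mettl14 KO animals, with 2 IP and 2 Input libraries, in which the deletion was driven by Nestin-Cre. Nestin-Cre acts in the neural lineage, so microglia, vessels, meninges and blood keep the gene. The labels name both a tissue and a serum-free culture medium, and do not say which of these the RNA came from. Each genotype is represented by a single consensus list, so a difference between genotypes has no replicate error. The intervals given cover only the counting of peaks or genes, and library depth is unknown. In bulk RNA, fewer cells of a type and less RNA per cell cannot be told apart, and a listed peak depends on the level of its transcript, which was not measured here. Mettl14 itself had 1 WT peak of 180 bases, on chromosome 3 from 123369398 to 123369577, and no KO peak. Neuron markers had a WT peak in 11 of 16 genes, astrocyte and radial glia markers in 12 of 14 and oligodendrocyte markers in 10 of 15. Outside the neural lineage, microglia markers had one in 7 of 16 genes, endothelial, mural and meningeal markers in 16 of 26 and blood cell markers in 0 of 10. Coordinates are those of GRCm38, counted from 1.

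METTL14 forms a heterodimer with the catalytic subunit METTL3, and together they write most m6A of mRNA, mainly in the consensus called DRACH, in long internal exons and around stop codons. Other enzymes leave methyl marks that the same antibodies can bind. PCIF1 methylates an adenosine that stands next to the cap, which gives m6Am at the very start of a transcript, METTL16 methylates a few hairpins, and ribosomal RNA has writers of its own. Peaks at the start of transcripts, inside transcripts and in noncoding RNA are therefore described separately below.

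Members began on the first base of an annotated transcript more often than the other short WT peaks did. RefSeq start windows of the same gene, chromosome and strand were found for 323 members, and 29 of these (8.98%) had their 5′ border exactly on an annotated first base. The same held for 181 of 8132 other WT peaks with 1 block below 600 bases (2.23%). This count was made after seeing the data. In 20 of the 29 pairs the KO peak began on that same base, and in 23 the KO peak ended further upstream than the WT peak, by up to 150 bases. Members were chosen by overlap with a KO peak, and a 5′ border common to both lists enters that overlap. How far this accounts for the gap between 8.98% and 2.23% was not tested. The sequences that follow show where these peaks begin. They are the first 30 transcribed bases of the 8 such members with the smallest WT p-values and of the 4 whose WT and KO borders were the same, from the RefSeq promoter table of GRCm38.p6, written 5′ to 3′. Capitals mark the motif GGAC and, as other cores of the DRACH consensus, the motif GAAC, the motif AGAC and the motif AAAC. The base after each motif, which DRACH also restricts, was not checked, and cores that begin with T were not searched. A marked motif is therefore not always a full DRACH match, and an unmarked stretch can hold one.

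Agap2, chr10:127078907-127078936, plus strand: ctcaatgtgaggggagcgcccGGACacaac

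Ybx1, chr4:119294484-119294513, minus strand: cgccattctcgctagttcgatcggtagcgg

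Brinp1, chr4:68954368-68954397, minus strand: accgcggcgcacttGGACttccctctccat

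Pou3f3, chr1:42695768-42695797, plus strand: attcgacagtccctgctctgagagggaggg

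Rab5a, chr17:53479234-53479263, plus strand: ggctacgtggcggagccggcggaagcagtt

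Vat1l, chr8:114205640-114205669, plus strand: caggagGAACccgcgggagagcAGACccga

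Fads2, chr19:10101474-10101503, minus strand: gagGGACcgtcggtgttgcgagccgcgggc

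Naa15, chr3:51416016-51416045, plus strand: gtcggtcttttcagttaccacgtGAACcgc

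Gnao1, chr8:93810838-93810867, plus strand: actccctccacaccccgcgccaccgccgcc

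Dio2, chr12:90739009-90739038, minus strand: gcagagagaggcactctgcagccagcggag

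Pitpna, chr11:75588079-75588108, plus strand: agAGACgccccgcccccgcgtggcgctgcg

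Kctd3, chr1:189007811-189007840, minus strand: agatggttgtggcggccgccatggaggcga

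The annotated first base was A in 8 of the 29 members, G in 17, C in 3 and T in 1. Of all 32851 start windows in the table, 34.4% have A at the annotated first base. At least 1 of the 4 motifs lay on the transcribed strand of the first 30 bases in 9 of the 29, against 34.5% of all windows, and GGAC alone in 4, against 11.2%. With either strand searched, 21 of 29 held a motif, against 58.4% of windows. The motifs can overlap each other only in part, and a match is a description of letters, not a methylated site. An annotated start is the first base of a RefSeq transcript and can differ from the base used in these cells.

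The peaks at transcript starts differed in strength and in how much of them was listed in the KO. Pou3f3, which encodes a POU homeodomain factor of upper-layer neurons and progenitors, had a WT peak of 210 bases with a listed p-value of 1e-215 and a KO peak of 180 bases with 1e-110, both beginning on the first base. Its paralogue Pou3f2 had 270 bases (1e-55) in WT and 180 bases (1e-14) in KO, again from the first base. Sox2, a regulator of neural stem cells, had 239 bases (1e-98) in WT and 149 bases (1.1e-09) in KO. These 3 genes have a KO peak that was shorter at its 3′ side alone. Naa15, the auxiliary subunit of the major N-terminal acetyltransferase, lost only 30 of 301 bases (1e-108 in WT and 1.3e-78 in KO). Gnao1, which encodes the G protein alpha subunit most abundant in brain, kept the same 211 bases (1e-91 and 1.3e-31). Dio2, the deiodinase that activates thyroid hormone, also kept 211 bases (1.3e-37 and 5e-24). Pitpna, a phosphatidylinositol transfer protein gene, kept 181 bases, with a smaller p-value in the KO list (1.3e-27 and 1.3e-42). Kctd3 had the weakest WT peak of all members, 151 bases with 1.7e-05, and the same borders in the KO with 1.3e-11. The amyloid precursor gene App had 121 bases (6.3e-16) and 91 bases (6.3e-11), and the synaptic vesicle gene Syn1 269 bases (1.3e-34) and 150 bases (1.6e-17). The authors' listed value is read here as a p-value or q-value of each consensus peak. Since the lists come from unequal numbers of libraries, values are compared within a list and only set side by side between lists.

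Some members reach beyond the first bases into sequence that start windows in the RefSeq table cover, their own or a neighbour's. They are shown because they let GGAC, the most frequent core of the m6A consensus, be counted over a longer stretch of a shared peak. The 30 bases around the first GGAC of each are written on the transcribed strand, with motifs in capitals as above.

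Sfswap, chr5:129501315-129501344, plus strand: ggcgaggcatcggGGACgttgttcggccca

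Naa15, chr3:51416156-51416185, plus strand: gaagggagtgtcaGGACagggcgggcgcgg

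Cby1, chr15:79667013-79667042, plus strand: acctaaaGGACaaagagctggatGAACtga

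Of the 6 members with at least 140 bases covered by a start window, Sfswap and Naa15 held 3 GGAC each and Cby1 held 2 on the transcribed strand. Ube2h, Ube2m and Sh3yl1 held none. Every window runs from 250 bases before an annotated start to 50 bases after it. The same number of bases from the beginning of every window was searched for GGAC on the window's own strand. GGAC was found in 57.4% (246 bases, as for Sfswap), 47.6% (184 bases, Naa15) and 56.0% (236 bases, Cby1). These stretches lie upstream of the window's annotated start, so the shares are not a background of transcribed sequence. Sfswap, a splicing regulator gene, had 269 bases in WT (4e-60) and 180 in KO (1.3e-19). Cby1, an antagonist of beta-catenin, had 236 bases (1.6e-86) and 178 bases (1.6e-23), near the end of its gene.

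Over whole genes, members lay near the gene start more often and near the gene end less often than other WT peaks with 1 block below 600 bases. The midpoint was within 200 bases of the gene start in 37 of 422 members (8.77%, Wilson 95% interval 6.43 to 11.9) and in 460 of 10510 others (4.38%, 4.002 to 4.78). This gap of 4.39 percentage points passed the two-sided test (Fisher's exact p = 0.000222, adjusted over 3 tests). The midpoint was within 1000 bases of the gene end in 55 members (13.03%, 10.2 to 16.6) and in 2138 others (20.3%, 19.6 to 21.1), a difference of -7.31 points (adjusted Fisher's exact p = 0.000222). Along the gene span, 24.2% of members and 15.4% of others lay in the first of 5 equal parts, and 50% and 58.1% in the last. The unit of these tests is the peak, so they describe the lists and not animals. Position was not used to choose the members, but 22 of the 37 members near a gene start had the same 5′ border in both lists, against 30.3% of the 330 members outside both windows. The part that this common edge plays in meeting the overlap rule was not tested. Among the 327 short WT peaks that met a KO peak but shared too little of it for the rule, 15 lay near a gene start (4.59%), close to the 4.38% of all other short WT peaks. The higher share near the start was thus seen in peaks that passed the 50% rule. The difference near the start was 0.922 points with a window of 100 bases (adjusted Fisher's exact p = 0.307), and that near the end was -2.53 points among genes with a KO peak (adjusted Fisher's exact p = 0.288).

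**Figure D1:**
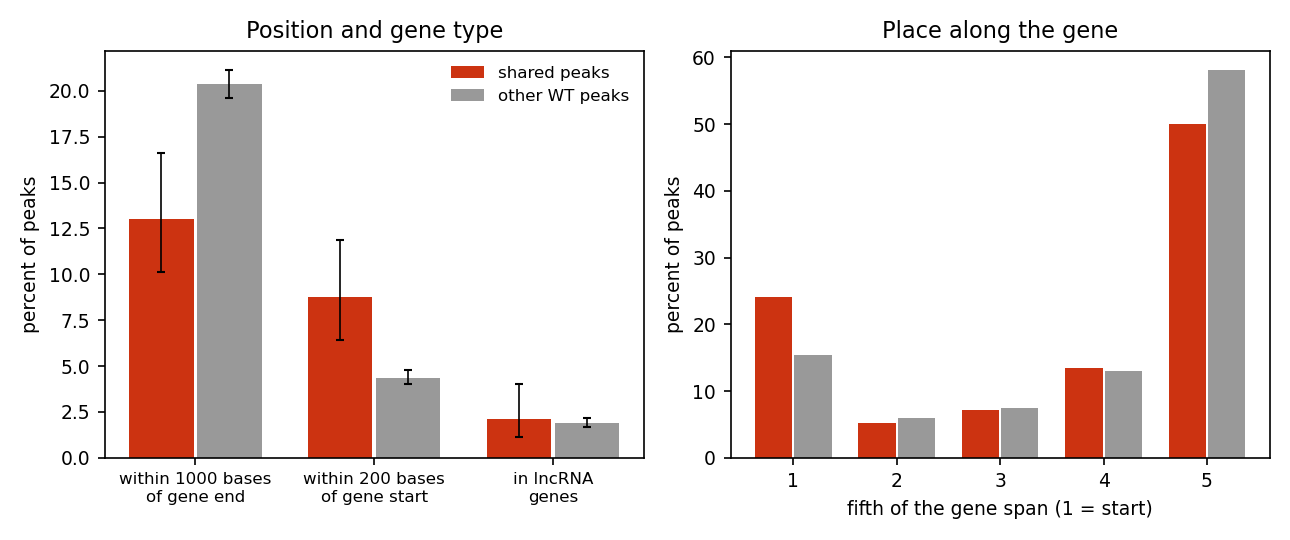
Left, percent of shared peaks (red, 422) and of other WT peaks with 1 block below 600 bases (grey, 10510) by position and gene type, with Wilson 95% intervals as error bars. Right, percent of the same peaks in each of 5 equal parts of the gene span from start to end. Shared peaks stand above the others near the gene start (8.77% and 4.38%) and below them near the gene end (13.03% and 20.3%).

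Near the gene start, the strongest WT peak was that of Brinp1, a gene for a brain-enriched inhibitor of the cell cycle (270 bases, 1e-251), whose KO peak of 181 bases had a p-value of 4e-20. Rab5a, the early endosome GTPase, had 300 bases (1e-172) in WT and 240 bases (2.5e-37) in KO. Rnf5, a ubiquitin ligase gene of the endoplasmic reticulum, had a peak of 179 bases on chromosome 17 from 34603383 to 34603561 in both lists, with p-values of 1e-132 and 3.2e-100. The lissencephaly gene Pafah1b1, a regulator of dynein, had 211 bases (1e-103) and 181 bases (7.9e-35). The caytaxin gene Atcay kept the same 150 bases (1e-96 and 6.3e-62). Mat2a, which makes S-adenosylmethionine, the methyl donor of every m6A writer, had 151 bases (4e-92) and 121 bases (2e-21) from its first base. Its peak overlaps one of the antisense transcript Particl (417 bases, 1e-100 in WT), and the sources used here do not say if the counting used strand. Peaks of both strands over the same bases were found for 8 members, Mat2a, Particl, Rundc1, Ptges3l, Syn3, Aifm2, Fbxo7 and Gm10532.

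The KO peak usually lay inside the WT peak. Member widths in WT had a median of 239 bases (quartiles 180 and 300), and the KO partners a median of 181 bases (150 and 239). The other WT peaks with 1 block below 600 bases had a median of 180 bases (120 and 270). All KO entries, of any block number, had a median of 151 bases (120 and 210). Members and their partners were thus each wider than the usual peak of these sets. The KO peak was narrower in 288 pairs, wider in 85 and of the same width in 50, and the ratio of KO to WT width had a median of 0.779 within the bounds of 0.5 and 2 that the rule sets. Among the 407 pairs whose KO partner had 1 block, 252 KO peaks lay inside the WT peak, 54 WT peaks lay inside the KO peak, 34 pairs had the same borders, and the others were shifted, 28 downstream and 39 upstream. The 5′ border was the same in 125 pairs and the 3′ border in 123. Of 566 borders that differed, 564 were moved by a multiple of 30 bases to within 1 base, so the resolution of the lists is a step of 30 bases and no finer shift could be seen.

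**Figure D2:**
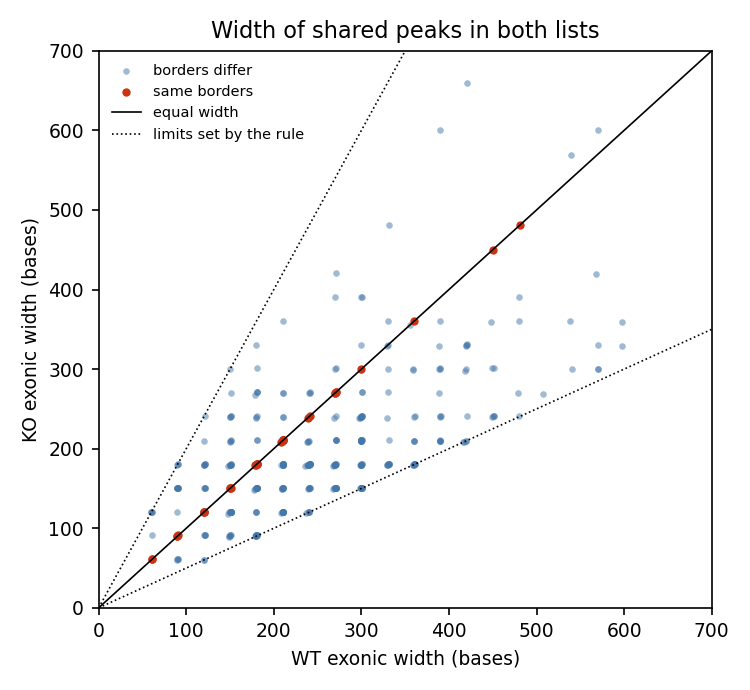
Exonic width of each of the 423 shared peaks in the WT list (x axis, bases) and of its KO partner (y axis, bases), with pairs of the same borders in red, the line of equal width and the dotted limits that the rule sets. Most points (288) lie below the line of equal width.

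**Figure D3:**
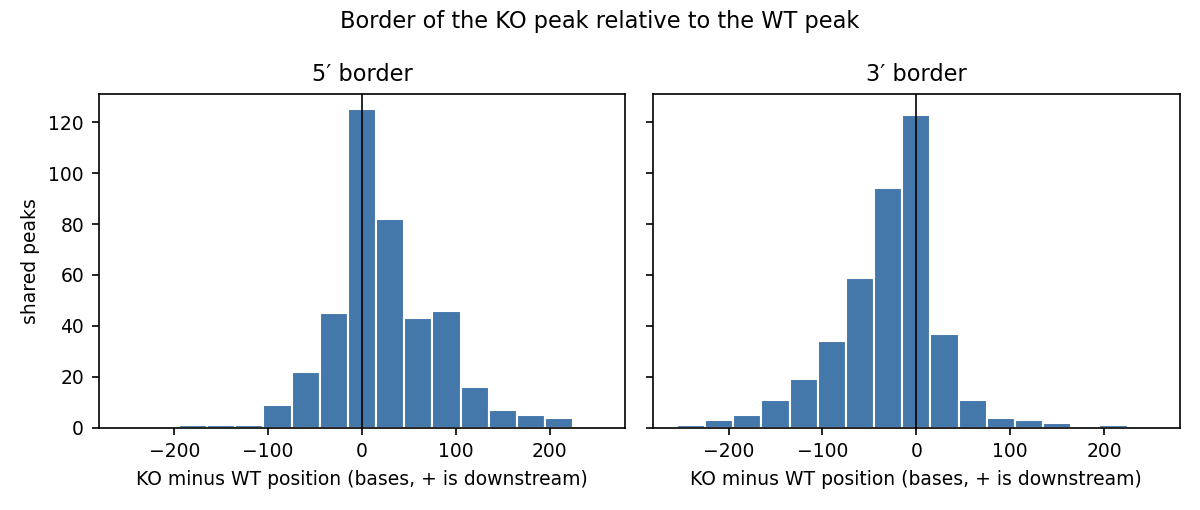
Number of shared peaks by the distance between the KO and the WT border in bases, for the 407 pairs with a single-block KO peak, at the 5′ border (left) and the 3′ border (right). The 5′ border of the KO peak is the same or moved downstream in most pairs, and the 3′ border is the same or moved upstream.

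Pairs with the same borders include some of the strongest peaks of both lists. Lhfpl4, which encodes a partner of the GABA-A receptor at inhibitory synapses, had the widest, with 481 bases on the minus strand of chromosome 6 (113169345 to 113169825) and a p-value listed as 0 in both lists. Scrt1, a neuronal zinc finger repressor gene, had 360 bases from 76521740 to 76522099 on chromosome 15, again listed as 0 in both. The third pair at 0 in both was a peak of 241 bases in Meg3. Tro, the trophinin gene on the X chromosome, had 450 bases, listed as 0 in WT and 1e-176 in KO. Ntrk2, the receptor of BDNF, had 271 bases with 1e-272 in WT and 0 in KO. Zic1, a cerebellar and dorsal patterning factor gene, had 300 bases (7.9e-47 and 1e-31), Elfn2 271 bases (2.5e-45 and 4e-31) and Hs3st4, a heparan sulfate sulfotransferase gene, 270 bases (1e-141 and 1.3e-82). The retromer gene Vps26b also kept 270 bases, with close values (6.3e-79 and 7.9e-70). Across the 34 pairs, widths ran from 61 to 481 bases with a median of 181, and 6 lay near a gene start.

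Members had a median rank at 29.3% of the short WT peaks from the strongest, and their partners at 34.8% of the KO peaks, but members ran from 1.56% to 99.7% and so over nearly the whole range. A p-value of 0, too small to be held, was listed for 54 members in WT and 14 partners in KO, and for 13 in both. The median was 4e-72 for members and 2.5e-36 for other WT peaks with 1 block below 600 bases, and 2.5e-21 for KO partners against 6.3e-15 for other KO peaks. With the WT peaks of 1 block below 600 bases ranked by p-value and divided into 5 classes, 7.31% of the strongest class were members (interval 6.29 to 8.48) and 1.69% of the weakest (1.23 to 2.32), beside 3.87% of them all. By width, 1.12% of peaks below 120 bases were members, 7.15% of peaks from 300 to below 420 bases, and 3.32% of those from 420 to below 600 bases. Overlap of this kind was met by 10 of 609 single-block WT peaks of 600 bases or more and by 523 of 3538 with several blocks. Over the 368 pairs with both p-values above 0, Pearson's r of the -log10 values was 0.527 and Spearman's rho 0.520. These points share their libraries, and transcript level enters both values. The 14 protocadherin alpha entries of 1 locus stand among the 368 pairs and in the strongest class as separate entries.

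**Figure D4:**
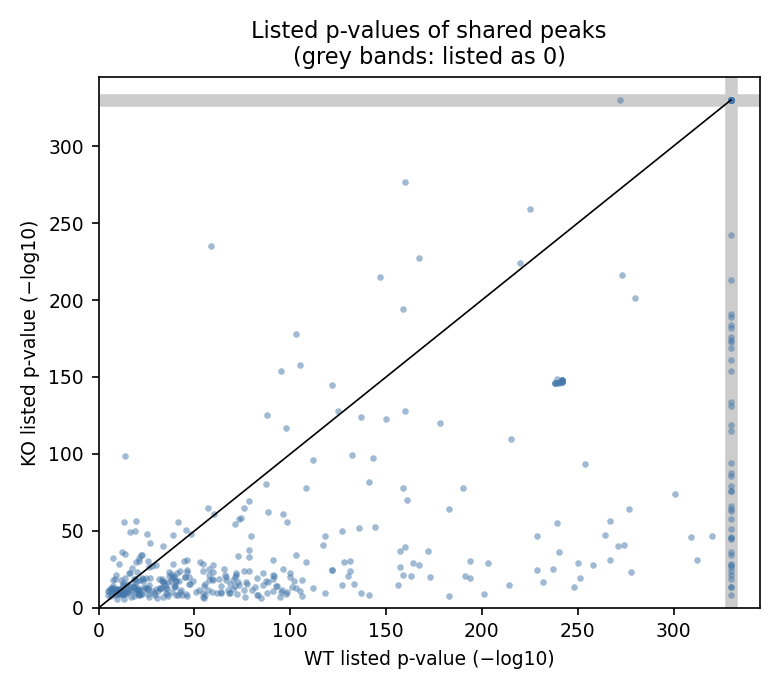
Listed p-value of each shared peak in WT (x axis, -log10) and of its KO partner (y axis, -log10), with the line of equal values and grey bands for values listed as 0. Most points (337 of 423) have the smaller p-value in WT, and 72 have it in KO.

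A smaller p-value in the KO list than in the WT list was found for 72 members. Their KO peak was the wider in 44 of 72 (61.1%), against 11.7% of the other members. Their median WT width was 151 bases, against 241 for the other members. Of the 36 members with the largest WT p-values, 26 were among these 72. A weak WT peak became a member only where the KO list also held a peak. How far this accounts for the 72 was not tested. The lists rest on unequal numbers of libraries of unknown depth, so these p-values are only set side by side. The wingless antagonist gene Dkk2 had 150 bases (1.6e-14) in WT and 300 bases (2e-99) in KO. Nova2, which encodes a neuronal splicing regulator, had 151 bases (6.3e-14) and 270 bases (2e-56). Sox9, a gliogenic factor gene, had 120 bases (1.6e-14) and 210 bases (1.6e-35). Tcaf1 had 300 bases (1e-160) and 330 bases (1e-277), and Trim2, a ubiquitin ligase gene of axons, 241 bases (1e-167) and 270 bases (1e-227). Iqsec1, an exchange factor gene for ARF6, had 329 bases in both lists (5e-20 and 2e-57). In each of these 6 genes the KO peak was as wide as the WT peak or wider. Of the 72, however, 28 had a KO peak that was not wider. Among them was Sh3rf3, with 390 bases (1e-147) in WT and 301 bases (1e-215) in KO. The genes of this paragraph were picked after their values were seen.

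Noncoding transcripts were led by Meg3, an imprinted long noncoding RNA that is abundant in neurons. It held 5 members, more than any other gene, all with a WT p-value listed as 0, on chromosome 12 from 109559633 to 109565330. The member from 109559633 to 109560202 was 570 bases wide in WT and 600 in KO (1e-182). The member from 109562002 to 109562332 was 331 bases in WT and 481 in KO (1e-191), where the KO peak began 150 bases further upstream. The member from 109565180 to 109565330 was 151 bases in WT and 210 in KO (6.3e-77). The remaining member beside the pair of the same borders, from 109563771 to 109564101, was 331 bases in WT and 181 in KO (1e-28). So 3 of the 5 Meg3 peaks were wider in the KO list, 1 was narrower and 1 was the same. The member at 109563771 begins within the hairpin of Mir770, a microRNA gene inside Meg3, and shares its last 15 bases, which are printed first to show the edge of the peak. The mature miR-770-3p ends 5 bases before the peak. It is printed with its seed, bases 2 to 8, in capitals.

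Mir770 hairpin, last 15 bases: caggggucugauggc

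mmu-miR-770-3p, chr12:109563744-109563765, plus strand: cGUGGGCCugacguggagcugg

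Long noncoding RNA genes held 9 of 422 members (2.13%, interval 1.13 to 4.003) and 201 of 10510 other short WT peaks (1.91%, 1.67 to 2.19), a difference of 0.220 points that did not pass (adjusted Fisher's exact p = 0.716). Beside Meg3 these were Particl, Gm10532, 1500009C09Rik and Sox2ot, the transcript that runs across Sox2, which had 151 bases (1.6e-32) in WT and 121 bases (1.3e-13) in KO. Sox2ot runs on the same strand as Sox2, whose own member lies at its gene start. The ribosomal RNA precursor gene Rn45s, which has no span in the gene table, held 1 member of 121 bases on chromosome 17 from 39846197 to 39846317, with 1e-21 in WT and 91 bases with 5.2e-09 in KO. The imprinted protein-coding genes Plagl1 and Peg10 held 1 member each. Plagl1, a zinc finger gene of an imprinted growth network, had 361 bases (0 in WT) and 241 bases (1e-119) in KO, and the retrotransposon-derived Peg10 had 91 bases (4e-19) and 150 bases (3.2e-19).

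Neural regulators of transcription were the next group. Of all 6316 genes with a WT peak of 1 block below 600 bases, 395 (6.25%) held a member, and the counts of each list are set against this share. The lists were chosen with earlier results of these data known and none was tested. A gene with more WT peaks has more peaks that can meet the rule. Member genes had a median of 3 WT peaks (quartiles 2 and 4), and the other genes of the 6316 had 2 (1 and 3). The list counts are not adjusted for this. Progenitor and neurogenic regulators held a member in 9 of 33 genes. Neurod6, a bHLH factor gene of cortical projection neurons, had 419 bases in WT and 330 bases in KO, both listed as 0. Its relative Neurod2 had a weak peak of 90 bases (3.2e-12) in WT and 180 bases (5e-12) in KO at the gene start. Nfix, a nuclear factor I gene that drives progenitors to differentiate, held 3 members, of 420 bases (5e-88), 360 bases (5e-99) and 61 bases (1.6e-31) in WT. Their KO partners had 659 bases (5e-81), 181 bases (1e-56) and 61 bases (6.3e-12), so 1 was wider, 1 narrower and 1 the same. Nfib had 210 bases (3.2e-96) and 181 bases (2.5e-12), and Sox4 419 bases (0) and 210 bases (1e-66). Chromatin and histone modifiers held a member in 3 of 39 genes, close to the share of all genes. These were the DNA methyltransferase gene Dnmt3a (360 bases, 0 in WT, and 181 bases, 4e-29, in KO), the demethylase gene Kdm6b (389 bases, 1e-178, and 300 bases, 1e-120) and the acetyltransferase gene Ep300 (360 bases, 1e-163, and 181 bases, 1.6e-21). The chromatin list is not complete. Kdm3b, Kmt2e and Hdac9 were members outside it, so its share holds for the listed genes alone.

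Of the synaptic and axonal genes, 11 of 49 held a member, and of the neuron markers 2 of 7. Map1b, a microtubule-associated protein gene of growing axons, held 3 members, all listed as 0 in WT. They were 300, 480 and 480 bases wide in WT and 240, 390 and 360 bases in KO, with KO p-values of 1e-173, 0 and 1e-131. Mapt, which encodes tau, had 330 bases in both lists, both at 0, with the KO peak 30 bases further upstream. Map1a had 449 bases (0) and 301 bases (1e-189). The tubulin genes Tubb3 and Tubb2b had 300 and 297 bases in WT and 240 and 238 bases in KO, all listed as 0, and Tubb2b is in no list. Elavl3, a neuronal RNA-binding protein gene, held a peak of 539 bases in WT and 569 bases in KO, both at 0, and a second of 180 bases (1e-103) in WT and 240 bases (1e-178) in KO. The motor gene Kif5a had 301 bases (0) and 271 bases (1e-154). At the synapse, the active zone genes Bsn and Pclo had 361 bases (1.3e-46) and 301 bases (2e-68) in WT and 181 bases each in KO (2e-25 and 1.3e-12). The postsynaptic scaffold gene Shank1 had 270 bases (6.3e-27) in WT and 181 bases (1.6e-27) in KO. Agap2, a GTPase-activating protein gene of endosomes that is in no list, held 3 members, of 301, 480 and 451 bases in WT and 151, 241 and 241 bases in KO.

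**Figure D5:**
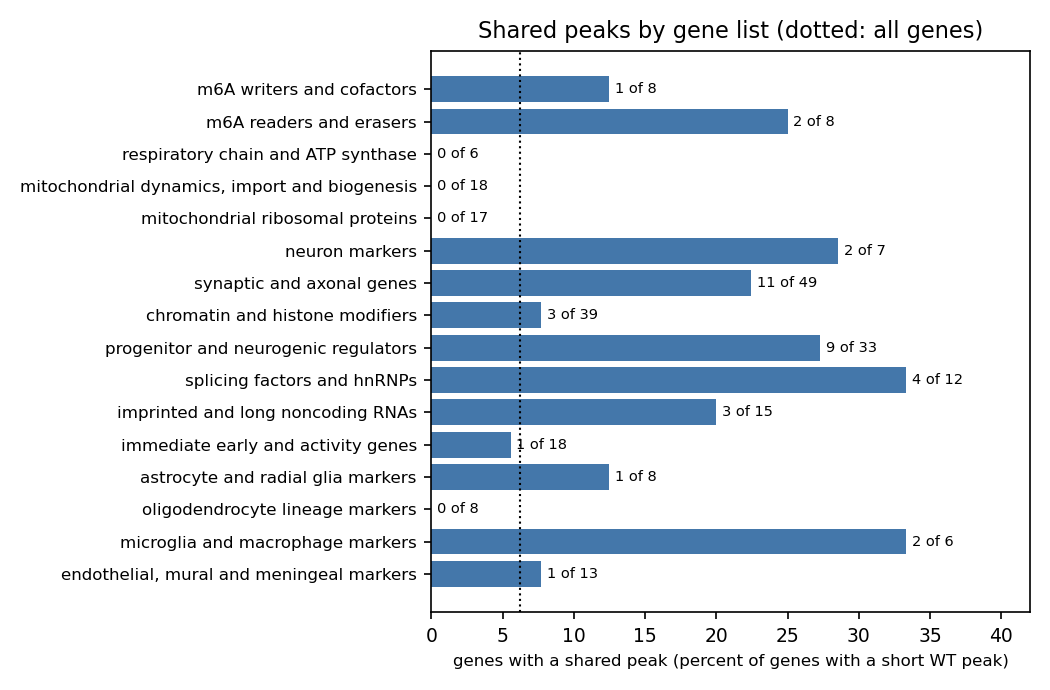
Percent of genes with a shared peak among those with a WT peak of 1 block below 600 bases, for each gene list with such genes, with counts beside the bars and a dotted line at the 6.25% of all genes. Bars rest on 6 to 49 genes each, and differences from the line were not tested or adjusted for the number of WT peaks per gene.

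Genes named by a shared symbol prefix, picked after the members were seen, show the spread of functions. G protein alpha subunits held a member in 4 of 10 genes, Gnai2, Gnao1, Gnaq and Gnas. Gnai2 had 211 bases (1e-137) and 181 bases (1e-124), and Gnaq 150 bases (1.6e-28) and 210 bases (4e-28). Ubiquitin-conjugating enzymes held one in 4 of 12 genes, Ube2h, Ube2k, Ube2m and Ube2ql1, and genes with the prefix Cacn in 3 of 18, Cacna1a, Cacna1g and Cacng2. The large Zfp and Slc groups held one in 12 of 208 genes (5.77%) and 5 of 118 (4.24%), close to the 6.25% of all genes. Potassium channel genes held one in 2 of 50, Kcnj3 and Kcnk2, and Rab genes in 1 of 39, Rab5a.

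Splicing factors and hnRNPs held a member in 4 of 12 genes, Srrm2 (240 bases, 1e-237, and 150 bases, 5e-26), Hnrnpul2 (271 bases, 1e-161, and 211 bases, 1e-70), Hnrnpl and Nova2. This list is not complete. Hnrnpll (180 bases, 1.3e-21, and 180 bases, 4e-33) and Sfswap were members outside it. By the prefix Hnrnp, 3 of 8 genes held a member. Ybx1, which encodes a cold shock protein that binds mRNA, held 2 members. The one at its annotated transcript start had 238 bases (0) and 208 bases (1e-115), and the other had 178 bases (2.5e-59) in WT and a KO partner of 267 bases (1e-235) over several blocks. Of the m6A readers and erasers, 2 of 8 held a member. The nuclear reader gene Ythdc1 had 360 bases (0) and 210 bases (1e-51), and Prrc2a 181 bases (5e-37) and 151 bases (7.9e-18). Of the writers and cofactors, Zc3h13 alone of 8 held one, of 91 bases (2.7e-08) in WT and 151 bases (1e-18) in KO.

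Mitochondrial genes held no member in the lists examined. The counts were 0 of 6 genes of the respiratory chain and ATP synthase, 0 of 18 genes of mitochondrial dynamics, import and biogenesis, and 0 of 17 mitochondrial ribosomal protein genes. Taking 3 genes as the limit that a count of 0 allows, shares of up to 50%, 16.7% and 17.6% would not have been seen, so these lists are too small to be set apart from the 6.25% of all genes. A WT peak of any kind that a KO peak overlapped by at least 1 base was found in 5, 4 and 0 genes of these lists. The outer mitochondrial membrane gene Cyb5b and the carrier gene Slc25a23, which are in no list, were members. Cyb5b had 240 bases (1e-105) and 210 bases (1e-158), and Slc25a23 had 298 bases (0) and 239 bases (1e-46). Of the immediate early and activity genes, 1 of 18 held a member, Jund (570 bases, 1e-191, and 300 bases, 2e-21).

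Markers of glia and of cells outside the Nestin lineage form lists of few genes. Astrocyte and radial glia markers held one in 1 of 8 genes, Sox9, and oligodendrocyte lineage markers in 0 of 8, which allows a share of up to 37.5%. Microglia and macrophage markers held one in 2 of 6 genes. The fractalkine receptor gene Cx3cr1 had 239 bases (7.9e-48) and 209 bases (5e-21), and Siglech 180 bases (9.1e-10) and 91 bases (4e-22). Endothelial, mural and meningeal markers held one in 1 of 13, the cadherin gene Cdh5 with 301 bases (6.3e-58) and 151 bases (5e-12). Whether the number of such cells differs between the genotypes was not tested.

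Most member genes also had WT peaks that no KO peak overlapped. Of the 395 genes, 62 had a single WT peak and 333 had several, and 312 had at least 1 WT peak that no KO peak overlapped. Of their 849 other WT peaks, 139 met a KO peak by at least 1 base and 710 (83.6%) met none. Over all WT peaks 87.1% met none, and over those of genes without a member 89.9%, so the share in member genes lay below both, which was not tested. Scrt1 had 6 WT peaks and Lhfpl4 and Tro had 5 each, while each of these genes had 1 KO peak, the member. Map1b, Meg3, Nfix and Agap2 were the 4 genes with 3 or more members, and 18 more genes had 2. In Mturn, Nrp1 and Ybx1 both WT peaks were members. Nrp1, the semaphorin and VEGF receptor gene, had 390 bases (0) and 61 bases (6.3e-84) in WT and 210 bases (1.6e-88) and 61 bases (4.6e-09) in KO.

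The protocadherin alpha genes account for 14 members at a single place. Entries named Pcdha1 to Pcdha12, Pcdhac1 and Pcdhac2 begin between 37184989 and 37185008 on chromosome 18 and end between 37185288 and 37185307, with 299 to 301 bases in WT (1e-242 to 1e-238) and 210 to 241 bases in KO (1e-149 to 1e-146). These genes splice different first exons to common last exons, so the entries cover the same stretch, shared by several transcripts, and count as 1 locus. Akap2 and Pakap share another locus, with 271 and 270 bases in WT. Pcdhac2 held a second member of its own.

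The cut-offs of the rule left near cases on both sides. By width, the members just inside were Tada2b (598 bases) and Cers4 (597 bases), and the peaks just outside were one of Map1a (600 bases) and one of Celf4 (721 bases). By overlap, Chl1, Dkk2, Gsk3b and Neurod2 were among those at 50% of the longer peak, and Ddx42 (47.5%), Syp (47.5%) and Bhlhe22 (47.4%) were just outside. In all, 327 WT peaks with 1 block below 600 bases met a KO peak but shared too little of it for the rule.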

How the data were processed

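The authors deposited a consensus peak list per genotype in BED format, with position, strand, gene symbol, exonic blocks and a score that was read as a p-value or q-value, since the header names no unit. The build GRCm38 and the aligner STAR are named, per the submitters' processing notes. Of the peak caller, its thresholds and any pooling of libraries, nothing is stated in the labels or the deposited lists. No values per library were used, so depth and replicate error are unknown.

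Each WT entry was compared with all KO entries on the same strand by shared exonic bases. With several KO entries, the partner was one of the same gene name, then the one with the largest share. Gene spans and types came from a RefSeq table of GRCm38.p6 and were usable for 99.9% of WT entries and 422 members. Positions and gene type were compared by Fisher's exact test (scipy 1.17.1), two-sided, adjusted by Benjamini-Hochberg over 3 tests with a threshold of 0.05, or pooled over classes by the Mantel-Haenszel method (statsmodels 0.14.6). Both were tested on data drawn with known answers. Sequences came from RefSeq tables. Lists had 18 names and 522 genes.

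Genes were named by number of members, width with the same borders, smallest p-values, nearness to the cut-offs, list membership, noncoding type and gene start. Members and lists were chosen with earlier results of these data known. Alternatives stand in the closing section.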

Additional observations from a re-analysis of the deposited data

How the results depend on the processing

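No paired analysis was possible because each genotype has a single list without library columns. Fits without a given replicate could not be run either. The number of members, 423, moved to 121 at a required share of 80% and to 218 with the stronger 50% of each list, and lay between 387 and 583 with 30% shared, strand ignored, a limit of 400 bases or merged entries. The difference near the gene end kept its sign under every alternative run and missed the threshold with 80% shared (-6.91 points), where 121 peaks are tested, and among genes with a KO peak (-2.53 points), where the share of the other peaks was 15.6% in place of 20.3% and the difference itself was smaller. That near the gene start missed it with a window of 100 bases (0.922 points), which leaves out wider peaks that begin at the start, and was otherwise 2.57 to 9.61 points, including 5.61 pooled over 5 classes of width and 6.07 pooled over 5 of strength. The difference near the start rose with the overlap required. It was 2.57 points with 1 shared base, 3.55 with 30% shared, 4.39 with 50% and 9.61 with 80%, so its size depends on the rule that chose the members. That for long noncoding RNA genes never passed and was -0.271 points with 80% shared and -0.212 with the strongest peak of each gene, and the cause was not tested. Counting overlapping entries once, pooling over width and strength together, the nearest transcript start and 1 shared base were chosen after seeing the data. Listed p-values of 0 have no order, and the step of 30 bases limits widths and borders.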
